A study of Mus musculus with 8 samples.

Results

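The genes described here are 10 chemokines grouped under the name of medullary chemokines, Ccl21a, Ccl19, Ccl22, Ccl17, Ccl5, Ccl11, Ccl7, Ccl2, Cxcl13 and Xcl1. They were chosen by symbol, and all 10 were found among the 27514 genes shared by the gene lists of the 8 single-cell matrices. Thymic epithelial cells (TEC) of wild-type C57 B6 (CD45.2) mice had been sorted from thymus as DAPI- EpCAM+ CD45- cells, captured with 10x Chromium v2 chemistry and counted as unique molecular identifiers (UMIs) per gene and cell. Cortical TEC (cTEC) were gated as Ly51+ UEA-1-, medullary TEC (mTEC) as Ly51- UEA-1+, and E13.5 cells were sorted as total TEC. The fetal and newborn (NB, 0 to 2 days) stages had 1 library each, at E13.5, at E15.5 and E17.5 from the cTEC gate, and at NB from the same gate, while adults of 4 to 6 weeks had 2 libraries of cTEC and 2 of mTEC. Adult libraries are numbered here in the order of deposition, and the study's methods divide the stages into a data set 1, with E13.5, E15.5, NB and adult, and a data set 2, with E17.5 and adult. Replicate 1 of both adult groups shares a list of 27998 genes with the first and replicate 2 a list of 31053 genes with the second, and they were assigned so.

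Chemokines are small secreted proteins that steer cells through receptors on the cell surface. Ccl21a and Ccl19 bind CCR7 and draw newly selected thymocytes from the cortex into the medulla, Ccl17 and Ccl22 bind CCR4, and Xcl1 binds XCR1 on cross-presenting dendritic cells. In the medulla, signals through RANK, CD40 and the lymphotoxin beta receptor activate NF-kappaB and drive the maturation of mTEC towards the stage that expresses Aire, the regulator of tissue-restricted antigens.

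Between 492 and 8350 epithelial-like cells per library entered the levels given below. These held from 2151147 UMIs in adult cTEC replicate 1 to 89998087 in E17.5 cTEC. Levels are CPM, the UMIs of a gene summed over the epithelial-like cells of a library and scaled to a common library total, so that a share of cells and an amount per cell are not told apart by a level alone. Counts of 3' UMIs do not scale with transcript length, and levels of different genes were compared on that basis. The labels were checked against marker genes. Summed cTEC markers were at 13320 to 28900 CPM in the cTEC libraries and at 1897 and 1610 CPM in the mTEC libraries, and summed mTEC II markers, Aire among them, were at 20.75 to 66.01 CPM in the cTEC libraries and at 1184 and 1061 CPM in the mTEC libraries. No pair of libraries shared more than 84 cell barcodes, at most 1.9% of the smaller library. The E13.5 library also held 124 parathyroid-like and 107 thyroid-like cells, and the NB library 169 thymocyte-like cells, which were left out of the levels. Nothing in the labels states that the replicates came from separate mice, and p-values measure the spread between libraries.

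The members form 3 groups of neighbours and 3 lone genes in the mouse genome (GRCm38, GENCODE M21). Ccl19 (chr4:42754525-42756577, minus strand) and Ccl21a (chr4:42772860-42773993, minus strand) were 16.3 kb apart, and Ccl22 (chr8:94745590-94751699, plus strand) and Ccl17 (chr8:94810453-94812036, plus strand) were 58.8 kb apart. Ccl2 (chr11:82035571-82037453), Ccl7 (chr11:82045712-82047525) and Ccl11 (chr11:82057823-82062955) followed each other on the plus strand with gaps of 8.26 kb and 10.3 kb, while Ccl5 (chr11:83525778-83530518, minus strand) lay farther along that chromosome. Xcl1 (chr1:164931644-164935527, minus strand) and Cxcl13 (chr5:95956951-95961068, plus strand) stood alone. All 10 are annotated as protein-coding. Ccl21a and Ccl19 each have a second row for a copy on an unplaced scaffold, which held at most 6 UMIs for Ccl21a and 0 for Ccl19, and both rows were summed. A near-identical Ccl21 copy, ENSMUSG00000096271, held up to 515 UMIs in a library, in adult mTEC replicate 1, beside 107104 for Ccl21a. Reads of these copies could have been split or dropped by the counting, and Ccl21a levels are uncertain to that extent.

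Bases before the start of the paired CCR7 and CCR4 ligands are shown because each pair is made of neighbours whose levels in adult mTEC are compared below. Sequences are from RefSeq (GRCm38.p6), are written 5' to 3' on the strand of the gene, and carry in capitals each match to GGGANTT on that strand or its complement. RefSeq promoters of 250 bases matched 6 of the 10 members by symbol. The RefSeq starts of Ccl21a, Ccl19 and Ccl22 lie inside the GENCODE genes, and only the 38 to 250 bases before the starts of both annotations are printed.
Ccl21a (chr4:42773994-42774241, minus strand): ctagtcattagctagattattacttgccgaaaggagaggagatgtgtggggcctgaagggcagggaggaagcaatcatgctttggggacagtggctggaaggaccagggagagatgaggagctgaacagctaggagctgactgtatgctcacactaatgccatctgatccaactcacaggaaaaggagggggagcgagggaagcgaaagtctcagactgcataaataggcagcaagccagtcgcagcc
Ccl19 (chr4:42756578-42756615, minus strand): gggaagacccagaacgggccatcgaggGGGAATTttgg
Ccl22 (chr8:94745434-94745589, plus strand): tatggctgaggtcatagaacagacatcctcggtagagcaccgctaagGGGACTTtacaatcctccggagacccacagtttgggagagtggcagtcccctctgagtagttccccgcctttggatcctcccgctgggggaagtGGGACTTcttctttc
Ccl17 (chr8:94810203-94810452, plus strand): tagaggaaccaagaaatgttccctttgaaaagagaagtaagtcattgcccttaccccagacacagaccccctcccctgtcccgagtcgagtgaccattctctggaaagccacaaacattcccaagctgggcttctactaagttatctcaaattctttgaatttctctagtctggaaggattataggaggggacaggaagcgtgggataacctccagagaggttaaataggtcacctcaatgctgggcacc

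The letters GGGANTT form one end of a common NF-kappaB site, and were searched after the 10-letter kappaB consensus gave no match in any of the 6 promoters. That consensus was found in 7.25% of 32851 promoters of the same length. GGGANTT matched in 14.4% of those promoters, and in 2 of the 6 members. Ccl22 had matches starting 203 and 109 bases before the RefSeq start, which are 109 and 15 bases before the GENCODE start, and Ccl19 had a match starting 223 bases before the RefSeq start and 11 bases before the GENCODE start. These matches are a description of letters and not of binding.

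Adult cTEC were first compared with adult mTEC to ask which of the chemokines were medullary. Of the 10 members, 7 were lower in cTEC and 0 were higher at an adjusted p below 0.05 (edgeR quasi-likelihood test, data set as a term), against 20.8% of all 15626 genes tested lower in cTEC, 10.9% higher and 31.7% in either direction. The median log2 difference of cTEC minus mTEC was -3.06 over the members, also with Xcl1 at its bound, and -0.14 over all genes tested. The 7 genes were Ccl19, Ccl22, Ccl17, Xcl1, Cxcl13, Ccl5 and Ccl11, and in each of them both mTEC libraries were above both cTEC libraries. Ccl21a, Ccl2 and Ccl7 overlapped between the lineages. The fit kept 1 residual degree of freedom, so that its p-values rest largely on the variance shared across genes. Fits with 1 library left out set 1 library against 2, had no data set term and took their spread from the group with 2 libraries, the lone library being assumed to vary alike. In these fits 4 to 7 members passed (4 without adult cTEC replicate 1 and 4 without replicate 2), and with all libraries 6 passed in DESeq2 and 8 with its size factors.

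**Figure D1:**
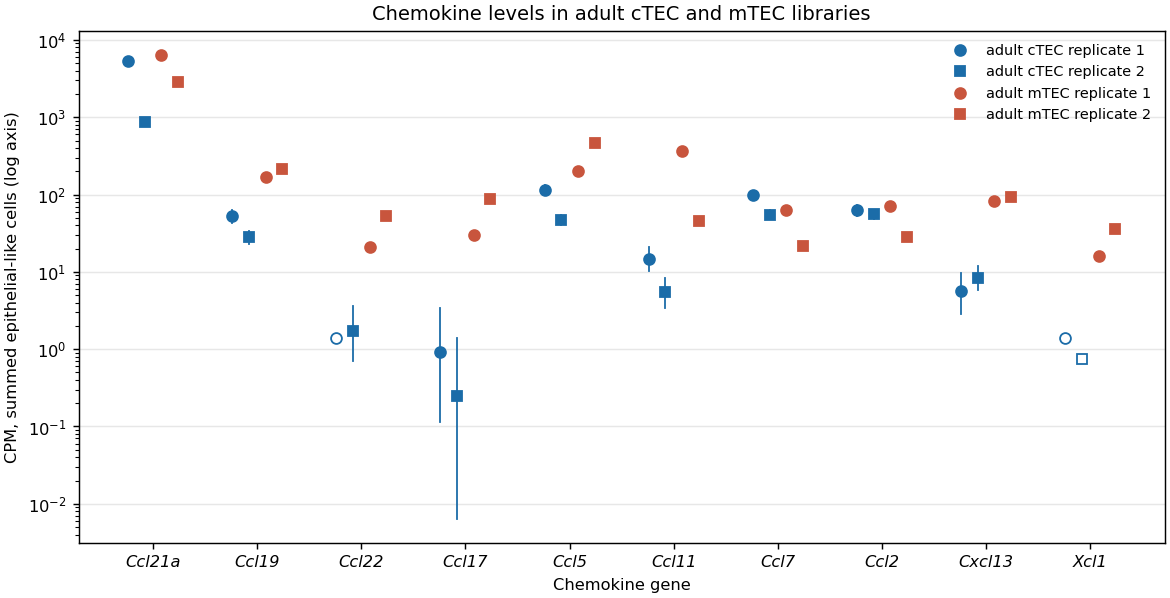
Level of each chemokine in the 4 adult libraries, in CPM on a log axis, with cTEC in blue, mTEC in red, replicate 1 as circles and replicate 2 as squares. Bars are 95% Poisson intervals for counting error, and open symbols mark 0 UMIs, drawn at the level of 3 UMIs. Both mTEC symbols lie above both cTEC symbols for 7 genes, and the lineages overlap for Ccl21a, Ccl7 and Ccl2.

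Among the CCR7 ligands, Ccl21a was the most abundant member in every library. It was at 5418 and 872.8 CPM in adult cTEC replicates 1 and 2, and at 6443 and 2893 CPM in adult mTEC. The cTEC value of replicate 1 exceeded the mTEC value of replicate 2, so the groups overlapped. Within data set 1 the mTEC level was 1.19-fold the cTEC level, and within data set 2 it was 3.31-fold. The fitted log2 difference of cTEC minus mTEC was -1.06 ± 0.47 (SE, n = 2 libraries per group, adjusted p = 0.0824, edgeR), and it rested on single libraries, at 0.037 without adult cTEC replicate 2, -2.40 without adult cTEC replicate 1, -0.15 without adult mTEC replicate 1 and -1.16 without adult mTEC replicate 2. With DESeq2 size factors in the edgeR fit the adjusted p was 0.0462. Ccl21a made up 86.3% and 73.3% of the UMIs of all 10 members in adult mTEC, and 93.9% and 81.3% in adult cTEC.

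Ccl19, which binds the same receptor, was at 52.1 and 28.0 CPM in adult cTEC and at 168.5 and 216.9 CPM in adult mTEC. The groups did not overlap, and the log2 difference was -2.40 ± 0.41 (SE, n = 2 per group, adjusted p = 1.08e-05, edgeR). Within data sets the mTEC level was 3.24-fold and 7.75-fold the cTEC level.

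Both CCR4 ligands were nearly absent from the cTEC libraries. Ccl22 had 0 UMIs in adult cTEC replicate 1, where 3 UMIs would be 1.39 CPM, and 7 UMIs in replicate 2, all in 1 cell, against 21.1 and 53.4 CPM in adult mTEC. The mTEC level was at least 15.2-fold higher in data set 1 and 30.8-fold higher in data set 2 (14.9 to 76.6, 95% exact interval, counting error only). Ccl17 had 2 and 1 UMIs in the cTEC libraries and 30.2 and 87.6 CPM in mTEC. Its ratios of mTEC to cTEC were 32.5 (8.95 to 269) and 354 (63.5 to 14000), with wide counting intervals. The groups did not overlap for either gene, and in the edgeR fit the adjusted p was 3e-09 for Ccl22 and 9.72e-11 for Ccl17. Without adult cTEC replicate 1 the adjusted p of Ccl22 was 0.0616, and without adult cTEC replicate 2 that of Ccl17 was 0.0581.

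Xcl1 was at 0 UMIs in adult cTEC replicates 1 and 2, and was at 16.0 and 36.4 CPM in adult mTEC, at least 11.5-fold and 48.9-fold higher when 3 UMIs per cTEC library are taken as the floor. Its adjusted p was 3.37e-10 in edgeR and 0.146 in DESeq2. Cxcl13, which binds CXCR5 on B cells and follicular helper T cells, was at 5.58 and 8.42 CPM in cTEC and 82.3 and 93.7 CPM in mTEC. This was the smallest spread between mTEC libraries among the 7 genes, with a log2 difference of -3.72 ± 0.44 (SE, n = 2 per group, adjusted p = 7.78e-09, edgeR).

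Ccl5, which attracts T cells and monocytes, was at 116.2 and 47.0 CPM in cTEC and 199.2 and 468.3 CPM in mTEC, with a log2 difference of -2.11 ± 0.47 (SE, n = 2 per group, adjusted p = 0.000434, edgeR). Its ratio of mTEC to cTEC was 1.71 in data set 1 and 9.96 in data set 2. A group of 3 cells held at least 50% of the 250 Ccl5 UMIs of cTEC replicate 1. In the fits with 1 library left out, it did not pass without adult cTEC replicate 1 (adjusted p = 0.0783), adult cTEC replicate 2 (adjusted p = 0.15) or adult mTEC replicate 2 (adjusted p = 0.211).

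The members encoded side by side on chromosome 11 did not share a pattern between lineages. Ccl11, the CCR3 ligand also known as eotaxin, was at 14.9 and 5.45 CPM in cTEC and 370.0 and 45.9 CPM in mTEC, a log2 difference of -3.97 ± 0.47 (SE, n = 2 per group, adjusted p = 6.93e-09, edgeR). Its mTEC libraries were the farthest apart of any member. Without either cTEC replicate it did not pass (adjusted p = 0.121 and 0.163). Ccl7 and Ccl2, ligands of the monocyte receptor CCR2, overlapped between the lineages. Ccl7 was at 98.6 and 54.7 CPM in cTEC and 63.1 and 21.7 CPM in mTEC, with a log2 difference of 0.92 ± 0.38 (SE, n = 2 per group, adjusted p = 0.0595, edgeR), and the cTEC library was the higher one in both data sets. With all deposited cells kept it passed as higher in cTEC, at 1.06 (adjusted p = 0.0304). Ccl2 was at 62.3 and 55.5 CPM in cTEC and 70.3 and 28.3 CPM in mTEC, with a log2 difference of 0.33 ± 0.39 (SE, n = 2 per group, adjusted p = 0.572, edgeR). Its ratio of mTEC to cTEC was 0.511 in data set 2 (0.444 to 0.589, counting error only). In data set 1 it was 1.13, with an interval of 0.943 to 1.36 that gives no direction. The log2 difference of Ccl2 was -0.32 without adult mTEC replicate 2 and 0.86 without adult mTEC replicate 1.

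Signs of other cells moved with the groups. Summed markers of dendritic and myeloid cells were at 416.1 and 112.6 CPM in adult cTEC and 1078 and 1701 CPM in adult mTEC, with 10, 7, 11 and 12 of the 12 markers detected. At 10 CPM or more were 5, 3, 4 and 5 of them, with Cd52 and Lyz2 the highest by sum over the libraries and Fcer1g, C1qa and Tyrobp the others. Ptprc, Flt3 and Itgax were at 3.71 CPM or less in each adult library, and Clec9a was at 0 in the cTEC libraries and at most 0.03 CPM in mTEC. Mesenchymal markers were at 511.8 and 323.8 CPM in adult cTEC and 100.1 and 68.8 CPM in adult mTEC, mostly Dcn. Erythroid markers were at 1.4 and 2.23 CPM in adult cTEC and 84.7 and 108.2 CPM in adult mTEC. B cell markers were at 1.86 and 2.23 CPM in adult cTEC and 24.5 and 36.6 CPM in adult mTEC. Immediate early and heat shock genes of dissociation stress summed to 17390 and 9000 CPM in adult cTEC and 7781 and 4019 CPM in adult mTEC. Their part in the chemokine levels was not tested.

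The rest of the chemokine system was taken from lists of other chemokines, atypical receptors, signalling receptors and genes of the inducing pathway. Of 26 other chemokines tested, 5 were higher and 13 lower in adult cTEC. Cxcl12 and Ccl25, which recruit progenitors to the thymus, were higher by 6.18 ± 0.55 and 3.44 ± 0.46 log2 units, as was Cxcl17 by 2.81 ± 0.40, and Ccl1, Cxcl14 and Cxcl2 had log2 differences of -7.87 ± 0.79, -6.41 ± 0.67 and -4.04 ± 0.44 (SE, adjusted p from 6.97e-12 for Cxcl12 to 3.82e-07 for Cxcl17, edgeR). Of 3 atypical receptors tested, 1 was higher and 1 lower, and Ackr4, a scavenger of Ccl19, Ccl21a and Ccl25, was higher in cTEC by 6.29 ± 0.47 (adjusted p = 1.6e-13). Of 10 signalling receptors tested, 6 were lower in cTEC and 0 higher, with Ccr7 at -5.33 ± 0.75 and Ccr10 at -4.41 ± 0.64. Of 10 genes of the inducing pathway, 7 were lower, with Aire at -6.39 ± 0.52, Fezf2 at -5.21 ± 0.48 and Spib at -4.33 ± 0.48, and 1 was higher, the lymphotoxin beta receptor gene Ltbr at 1.51 ± 0.40.

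The next question was which cells of the adult medulla carried each chemokine. Each adult mTEC library was clustered without the 10 genes, and clusters were named mTEC I-like, II-like, III-like, tuft-like or microfold-like only by markers of these subsets. Cluster 3 of replicate 1 had 6 of the 7 mTEC I markers raised and was left unnamed because its leading genes held a cTEC marker, Ctsl, and no mTEC I marker. No cluster of replicate 2 was named mTEC II-like, and its cluster 2, with 2 mTEC II markers raised, was left unnamed. Cells were also thinned to 2000 UMIs each to compare shares of cells. Tuft-like cells, which are chemosensory, were set beside the other clusters as a comparison for free RNA, and whether they express the members was not tested. The tuft-like cells were 13 with a median of 6402 UMIs in replicate 1 and 151 with a median of 7335 in replicate 2, where whole libraries had medians of 9500.5 and 11386 UMIs.

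**Figure D2:**
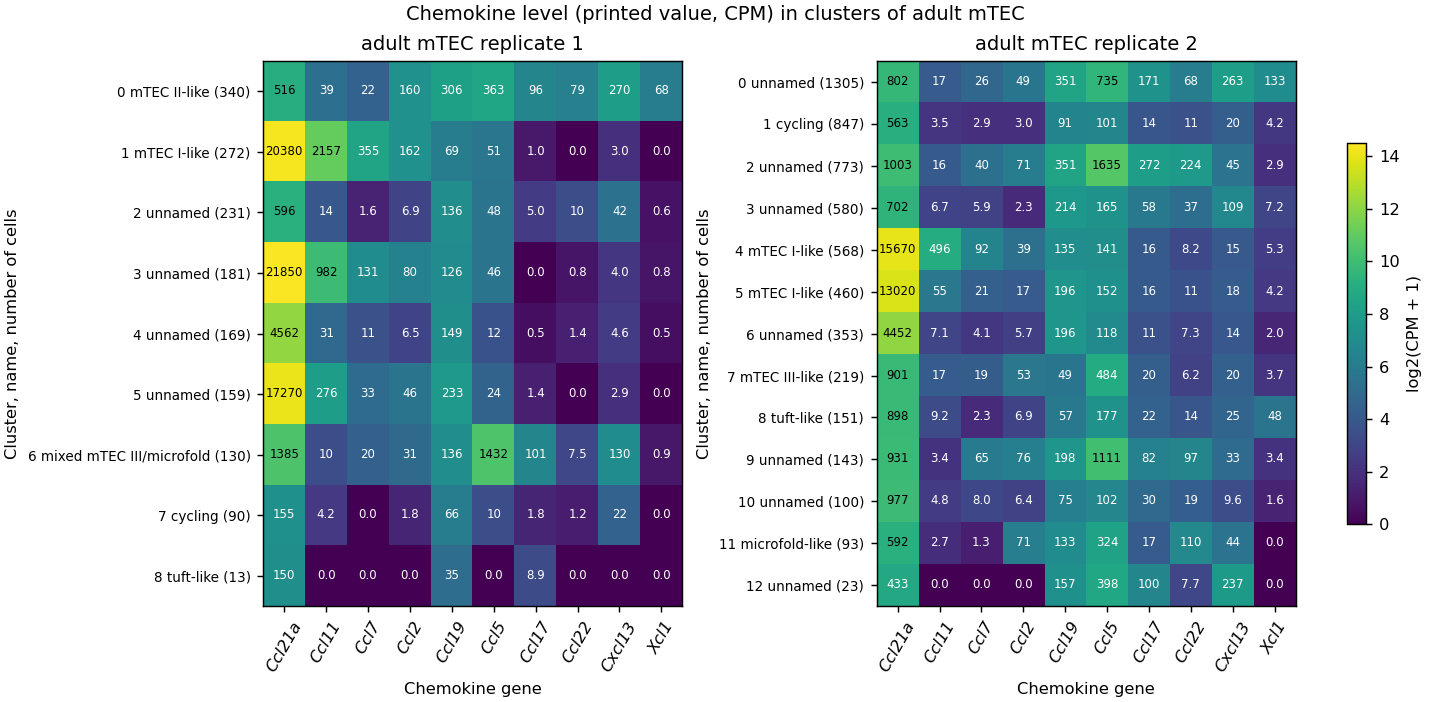
Level of each chemokine in every cluster of the adult mTEC libraries. Rows are clusters with their name and number of cells, columns are genes, printed values are CPM, and colour is log2(CPM + 1). Ccl21a and Ccl11 are highest in the mTEC I-like clusters and clusters 3 and 5 of replicate 1, while Ccl17, Ccl22, Cxcl13 and Xcl1 are highest in other clusters.

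Ccl21a was concentrated in the Krt5-rich part of the medulla. In replicate 1 it was at 20380 CPM in the mTEC I-like cluster, 21850 CPM in cluster 3 (leading genes Ch25h, Cxcl14 and Mgp) and 17270 CPM in cluster 5 (leading genes Igfbp5, Lypd1 and Wfdc18), which held 37.6%, 25.7% and 22.3% of its UMIs. In replicate 2 it was at 15670 and 13020 CPM in the mTEC I-like clusters 4 and 5, which held 36.3% and 31.7% of its UMIs. Clusters 4 of replicate 1 and 6 of replicate 2, both with Matn1 and Mcm genes among their leading genes, were intermediate at 4562 and 4452 CPM. All other clusters were between 150.5 and 1385 CPM, and tuft-like cells were at 150.5 and 897.9 CPM.

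The share of cells with a Ccl21a UMI was 91.2% and 97.7% before thinning and 67.1% and 75.3% after it. The tuft-like share after thinning was 30.8% and 72.9%. In replicate 2 it was 61.3% in cycling, 64.2% in microfold-like and 67.2% in mTEC III-like cells, so that a single UMI of Ccl21a tells little there. Whether such UMIs came from free RNA was not tested. In the mTEC I-like clusters and clusters 3 and 5 of replicate 1 the thinned share was 99.8% to 100%, and in clusters 4 of replicate 1 and 6 of replicate 2 it was 76.3% and 94.3%. Cells with 10 or more UMIs, unthinned, made up 50.7% and 44.5% of the libraries, and its UMIs were spread widely, since 239 and 539 cells had to be summed to reach 50% of them. Over single cells, the genes most like Ccl21a were Ctsl, Ifi27l2a and Krt5, with Pearson r of 0.81, 0.80 and 0.80 in replicate 1 and 0.72, 0.68 and 0.68 in replicate 2 (1585 and 5615 cells that share library and depth, 9524 genes compared).

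Ccl11 marked a narrower part of the same cells. It was at 2157 CPM in the mTEC I-like cluster of replicate 1, which held 69.2% of its UMIs, and at 982.0 CPM in cluster 3. In replicate 2 it was at 495.8 CPM in mTEC I-like cluster 4, with 72.4% of its UMIs, and at only 55.4 CPM in mTEC I-like cluster 5. Both of the highest Ccl11 clusters had Mgp and Gas1 among their leading genes. In thinned cells, 64.0% of the mTEC I-like cells of replicate 1 and 33.2% of cluster 4 cells had a UMI, against 0 and 0.69% of tuft-like cells. Mgp and Gm8113 were among the genes most like it, with r of 0.53 and 0.46 in replicate 1 and 0.45 and 0.43 in replicate 2.

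In thinned cells Ccl7 was found most often in the cluster of each library where Ccl11 was also found most often. Its share was 22.1% in the mTEC I-like cluster of replicate 1 and 10.5% in mTEC I-like cluster 4 of replicate 2, where cluster 0 had 1.47%. The mTEC I-like cluster of replicate 1 was at 355.2 CPM and held 66.9% of its UMIs. In replicate 2, mTEC I-like cluster 4 was at 91.9 CPM with 28.3% of the UMIs, and cluster 0 (leading genes Mt4, S100a9 and Calb2) held 29.4% at 26.2 CPM. A single cell of that library held 205 of its 1461 Ccl7 UMIs, and 26 cells held at least 50%. Thinned shares of Ccl7 were 6.18% and 2.17%, and 0 in tuft-like cells of both libraries. Over single cells the genes most like Ccl7 were its neighbours Ccl2 and Ccl11, with r of 0.43 and 0.49 in replicate 1 and 0.33 and 0.33 in replicate 2. Ccl2 was spread over both kinds of cell, with 52.4% of its UMIs in the mTEC II-like cluster of replicate 1 and 27.4% in the mTEC I-like cluster, at 159.9 and 162.1 CPM. One cell of replicate 1 held 322 of the 1169 Ccl2 UMIs. Its share of thinned cells there was 2.94% in the mTEC II-like cluster, 18.4% in the mTEC I-like cluster and 0 in tuft-like cells. Replicate 2 differed, with 42.0% of the UMIs in cluster 0 and 9.29% and 4.14% in mTEC I-like clusters 4 and 5. Thinned shares in replicate 2 were 5.33% and 2.62% in these mTEC I-like clusters, highest in cluster 9 at 11.6%, and 0.69% in tuft-like cells.

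Xcl1 lay in the fewest cells. In replicate 1 the mTEC II-like cluster held 98.1% of its 266 UMIs, and in replicate 2 cluster 0 held 88.9% of 2448 UMIs at 132.7 CPM. A UMI was found in 0.95% and 4.67% of cells, and 2 and 9 cells held at least 50% of all UMIs. After thinning the shares were 0.57% and 1.57%. In replicate 2 the tuft-like cluster was at 47.5 CPM of Xcl1, above the 36.4 CPM of the whole library, and so gives no background level for this gene.

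Cxcl13 shared those clusters. It was at 270.5 CPM in the mTEC II-like cluster of replicate 1, with 75.7% of its UMIs, and at 263.2 CPM in cluster 0 of replicate 2, with 68.4%. In thinned cells of cluster 0 of replicate 2, 14.2% had a UMI, against 5.56% of tuft-like cells. No gene reached the correlation needed to be named as like Cxcl13 (0.2 in both libraries).

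Ccl17 and Ccl22 had most of their UMIs in the same cluster of replicate 1. The mTEC II-like cluster of replicate 1 was at 96.4 CPM of Ccl17 and 79.2 CPM of Ccl22 and held 73.5% and 86.6% of their UMIs. In replicate 2 the highest values were in cluster 2 (leading genes Klk1b26, Resp18 and Fabp9), at 271.5 and 223.6 CPM, above 171.0 and 68.5 CPM in cluster 0. Ccl17 also reached 100.6 CPM in the mixed mTEC III and microfold cluster of replicate 1, where Ccl22 was at 7.45 CPM. In that library 5 cells held at least 50% of the 502 Ccl17 UMIs, and the thinned share was 2.31% in the mixed cluster and 8.82% in the mTEC II-like cluster. In the microfold-like cluster of replicate 2 it was Ccl22 that was high, at 110.3 CPM beside 17.49 CPM of Ccl17. Thinned shares over all cells were 2.40% and 6.34% for Ccl17 and 2.21% and 4.83% for Ccl22. In tuft-like cells they were 7.69% and 4.17% for Ccl17 and 0 and 2.78% for Ccl22, where the value for Ccl17 in replicate 1 is that of 13 cells. In the mTEC I-like cluster, clusters 3 and 5 and the cycling cluster of replicate 1, 0 of 272, 181, 159 and 90 thinned cells had a Ccl17 UMI. Replicate 2 did not share these zeros, with Ccl17 in 3.91% and 2.62% of mTEC I-like clusters 4 and 5 and 3.03% of cycling cells. Csn2, Plekha4 and Lsp1 were the genes most like Ccl17, with r of 0.25, 0.23 and 0.22 in replicate 1 and 0.23, 0.20 and 0.20 in replicate 2.

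Ccl19 was found in every cluster of both libraries. It was at 305.5 CPM in the mTEC II-like cluster and 233.1 CPM in cluster 5 of replicate 1, and at 350.9 and 350.6 CPM in clusters 0 and 2 of replicate 2. It was lowest in tuft-like cells of replicate 1, at 35.4 CPM, and in the mTEC III-like cluster of replicate 2, at 48.8 CPM. Thinned shares were 23.6% and 28.6% over all cells and 0 and 6.25% in tuft-like cells. The genes most like it were the antigen presentation genes H2-DMb2 and Cd74 and the ubiquitin-like gene Ubd, with r of 0.29, 0.27 and 0.27 in replicate 1 and 0.30, 0.35 and 0.32 in replicate 2.

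In replicate 1 Ccl5 had its highest level outside the mTEC I-like and II-like clusters. There the mixed mTEC III and microfold cluster was at 1432 CPM with 46.4% of the UMIs, and the mTEC II-like cluster at 363.0 CPM held another 41.9%. In that library 10 cells held at least 50% of the 3312 Ccl5 UMIs, and 1 cell held 616. In replicate 2, where no cluster was named mTEC II-like, Ccl5 was at 1635 CPM in cluster 2 and 734.9 CPM in cluster 0. Cluster 9, led by the enterocyte genes Guca2b, Apoc3 and Guca2a, was at 1111 CPM. Thinned shares of Ccl5 were 9.21% and 29.2%. In replicate 2 the share was 25% in tuft-like and 18.7% in cycling cells, so that a single Ccl5 UMI in a cell tells little there. Whether such UMIs came from free RNA was not tested. Bcl2a1b, Cd52 and Bcl2a1d were the genes most like it, with r of 0.29, 0.27 and 0.28 in replicate 1 and 0.29, 0.26 and 0.25 in replicate 2.

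Thinned cells were also divided by detection of Aire, Fezf2 or Krt5, as a description. A UMI of Ccl21a was found in 39.3% of cells with Aire and 81.7% of cells without it in replicate 1, and in 69.3% and 79.4% in replicate 2. For Ccl11 the shares were 2.74% with and 27.7% without Aire, and 2.51% and 6.87%. Ccl22 went the other way, at 4.39% against 1.06% and 6.14% against 3.93%, and Ccl19 was at 31.3% against 19.6% and 32.2% against 26.1%. With Krt5, the keratin of the mTEC I-like cells, Ccl11 was found in 37.1% of positive and 4.06% of negative cells in replicate 1 and in 12.0% and 1.62% in replicate 2. Cells with Krt5 had Ccl22 in 0.55% against 3.60% and 2.16% against 6.17%. With Fezf2, Ccl22 was found in 2.17% of positive and 2.24% of negative cells in replicate 1 and in 4.27% and 5.35% in replicate 2, and Ccl17 in 3.79% and 1.18% and in 6.44% and 6.24%.

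Which chemokines shared single cells was measured as the number of cells with both over the number expected if the shares of the genes were independent, in cells thinned to 2000 UMIs. Cells of a library share their free RNA and their mix of clusters, and the ratios describe these libraries with no test. Most cells had few of the members, with 0 in 18.2% and 10.9%, 1 in 40.1% and 37.6%, and 4 in 3.22% and 3.33% of the cells of replicates 1 and 2. No cell of replicate 1 had more than 5 of them, and the highest number in replicate 2 was 8, in 1 cell.

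**Figure D3:**
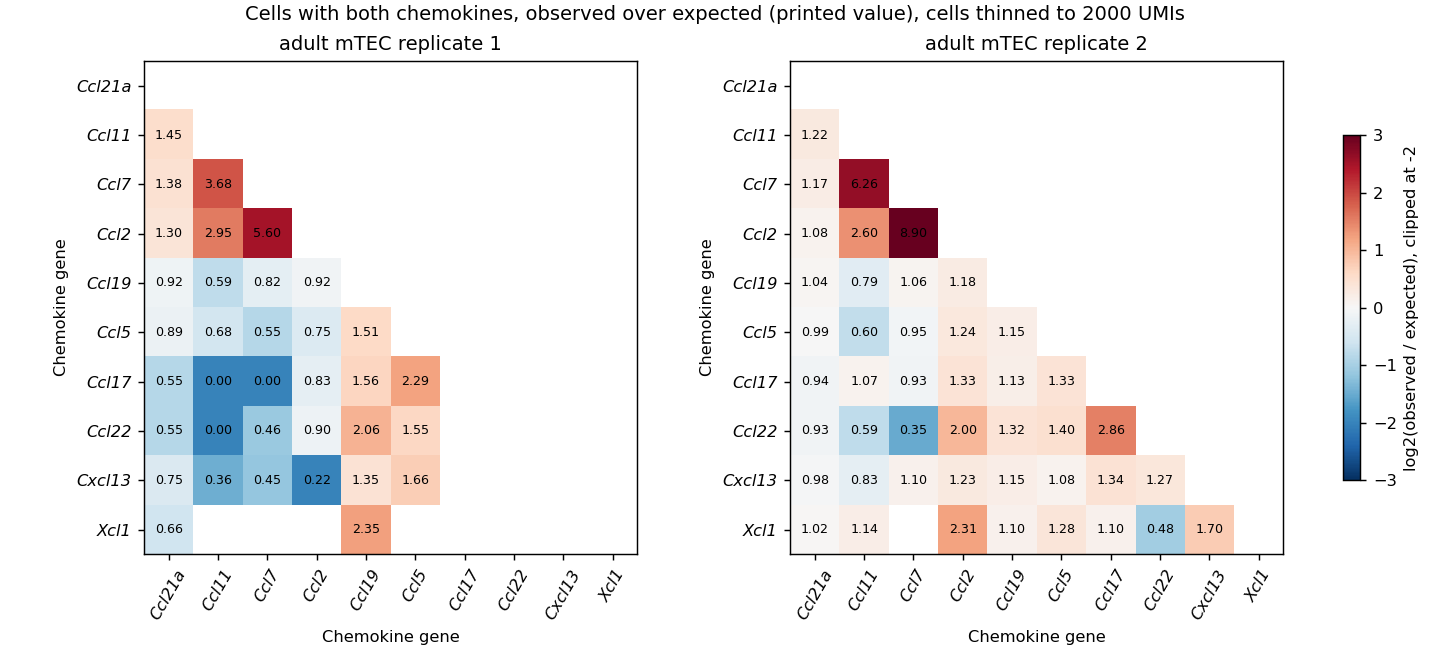
Cells with both chemokines of a pair, observed over expected, in adult mTEC replicates 1 and 2 after thinning to 2000 UMIs per cell. Red marks more and blue fewer cells than expected, and pairs with an expectation under 2 cells are blank, Ccl22 and Ccl17 in replicate 1 among them. Ccl11, Ccl7 and Ccl2 form a red block in both libraries.

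Ccl7 and Ccl2 shared 35 cells where 6.25 were expected in replicate 1 and 32 where 3.60 were expected in replicate 2, ratios of 5.60 and 8.90. Ccl11 and Ccl7 shared 69 cells where 18.7 were expected and 38 where 6.07 were expected, ratios of 3.68 and 6.26, and Ccl11 and Ccl2 had ratios of 2.95 and 2.60. These are the 3 neighbours of chromosome 11. In unthinned cells the ratio of Ccl7 and Ccl2 was 3.62 and 3.14 over the whole libraries, and that of Ccl11 and Ccl7 was 2.79 and 3.01. In the mTEC I-like cluster of replicate 1, also unthinned, the ratio was 1.66 for Ccl7 and Ccl2 and 1.18 for Ccl11 and Ccl7. Inside mTEC I-like cluster 4 of replicate 2 it was 1.31 for Ccl11 and Ccl7, and inside cluster 0 it was 2.94 for Ccl7 and Ccl2.

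The CCR4 ligands shared cells as well, with 6 cells against 0.84 expected in replicate 1 and 48 against 16.8 in replicate 2, ratios of 7.15 and 2.86, the first from an expectation of under 1 cell. In unthinned cells it was 6.54 and 1.47 over the whole libraries, and 2.42 and 1.68 inside the cluster with most Ccl22 UMIs. For the CCR7 ligands, Ccl21a and Ccl19, the ratios were 0.92 and 1.04, but a Ccl21a UMI was in most thinned cells, tuft-like cells of replicate 2 included, so that these ratios say little of shared cells. In the cTEC libraries, where fewer cells had Ccl21a, the unthinned ratio was 8.48 at E15.5 (6 cells against 0.71 expected), 1.81 at E17.5, 3.44 in NB and 4.48 in adult cTEC replicate 2, and in adult cTEC replicate 1 36 cells had both against 24.1 expected. In thinned adult mTEC replicates 1 and 2, Ccl21a and Ccl11 had ratios of 1.45 and 1.22. Ccl21a was in 67.1% and 75.3% of these cells, which leaves little room for a higher ratio.

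Other pairs fell below expectation. Ccl22 and Ccl11 shared 0 cells against 6.69 expected in replicate 1 and 8 against 13.51 in replicate 2. Ccl5 and Ccl11 had ratios of 0.68 and 0.60, and Ccl19 and Ccl11 of 0.59 and 0.79. Ccl19 was found with Ccl22 at ratios of 2.06 and 1.32 and with Ccl5 at 1.51 and 1.15. Ratios in replicate 2 lay nearer to 1 for most pairs, beside higher shares of tuft-like cells with a UMI of Ccl21a and Ccl5 in that library. Leaving out the 23 and 315 cells of highest doublet score changed the ratio of Ccl7 and Ccl2 to 5.58 and 8.95, and that of Ccl22 and Ccl17 to 7.47 and 2.78.

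The last comparison followed E13.5 total TEC and the cTEC libraries to the adult, as the slope of log2 level per stage over 6 libraries. Of the 8 members that passed the filter on low counts, 5 rose with stage and 0 fell, against 5.15% of the 14285 genes tested that rose, 3.07% that fell and 8.22% in either direction (edgeR, adjusted p below 0.05). The median slope was 1.98 over these members and 0.000264 over all genes tested. The 5 were Ccl2, Ccl7, Ccl11, Cxcl13 and Ccl19. A member passes the filter through the libraries in which it is high, so that the count of 5 of 8 is a description of the genes that could be tested. Each age below the adult had 1 library, fetal thymi were dissociated with trypsin and not enriched while NB and adult thymi were digested with Liberase and enriched on Percoll, and the step from fetal to NB cTEC cannot be told apart from that difference.

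**Figure D4:**
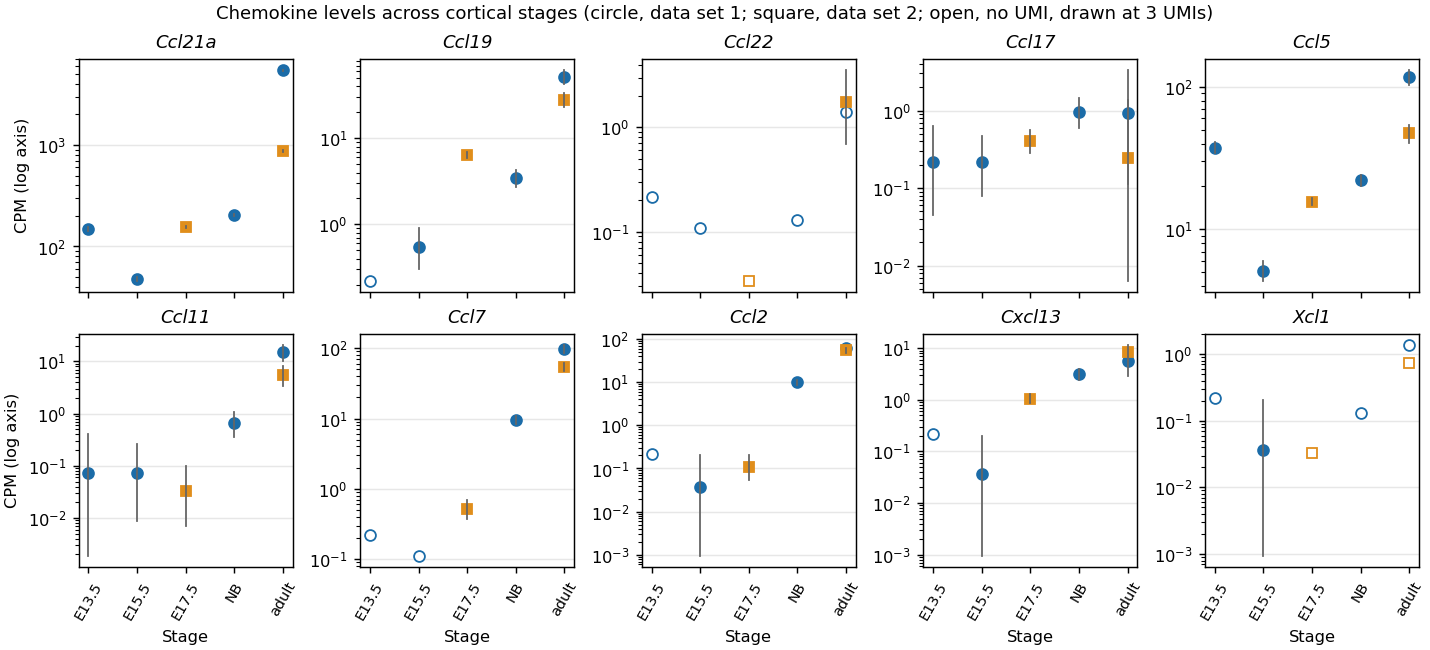
Level of each chemokine in the E13.5 TEC library and the cTEC libraries, in CPM on log axes that differ between panels. Circles are data set 1, squares data set 2, bars 95% Poisson intervals, and open symbols 0 UMIs drawn at the level of 3 UMIs. Ccl2, Ccl7 and Ccl11 are at or below 0.51 CPM in all fetal libraries and higher in NB and adult libraries.

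Ccl2 was at 0, 0.04 and 0.11 CPM at E13.5, E15.5 and E17.5, at 9.81 CPM in NB cTEC and at 62.3 and 55.5 CPM in the adult libraries, a slope of 3.90 ± 0.27 (SE, 6 libraries, adjusted p = 0.00291, edgeR). Ccl7 ran beside it at 0, 0, 0.51, 9.55, 98.6 and 54.7 CPM, with a slope of 3.54 ± 0.21 (adjusted p = 0.00291). Every fetal library was below NB and NB below both adult libraries for these genes. The 2 genes also shared cells in the cortex: 18 NB cells had both where 3.48 were expected, and 20 and 18 adult cTEC had both where 6.66 and 5.05 were expected (unthinned). Summed dissociation stress genes moved with the same libraries, at 549.6, 387.4 and 464.1 CPM at the fetal stages, 9854 CPM in NB cTEC and 17390 and 9000 CPM in adult cTEC, all 10 genes of the list being at 10 CPM or more in each adult cTEC library. In the same order of libraries, summed mesenchymal markers were at 16.0, 9.36, 11.4, 37.7, 511.8 and 323.8 CPM. Dendritic and myeloid markers were at 0.65, 0.33, 1.98, 2.25, 416.1 and 112.6 CPM. The part of stress genes or of other cells in the rise was not tested.

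Ccl11 was at 0.07, 0.07 and 0.03 CPM in the fetal libraries, 0.65 CPM in NB and 14.9 and 5.45 CPM in adult cTEC, with a slope of 2.52 ± 0.41 (adjusted p = 0.0206, edgeR). Cxcl13 was at 0, 0.04, 1.06, 3.16, 5.58 and 8.42 CPM, with a slope of 2.02 ± 0.34 (adjusted p = 0.0232). Ccl19 was at 0, 0.55, 6.37, 3.42, 52.1 and 28.0 CPM, with a slope of 1.95 ± 0.31 (adjusted p = 0.0197), and E17.5 was above NB. Without adult cTEC replicate 1, Ccl2 passed (adjusted p = 0.0254) and the other 4 did not, with adjusted p from 0.056 for Ccl7 to 0.241 for Ccl11. Without E15.5 cTEC, Ccl2 and Ccl7 passed.

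The trend of Ccl21a did not pass, at a slope of 1.28 ± 0.33 (adjusted p = 0.0622, edgeR). It was at 148.9, 47.8, 155.7 and 203.2 CPM in E13.5, E15.5, E17.5 and NB cells, and at 5418 and 872.8 CPM in adult cTEC, above every younger library. Few cells of the younger libraries carried it at a high level, since cells with 10 or more UMIs were 2.63%, 1.24%, 3.32% and 4.02% at the younger stages, and 20.9% and 4.49% in adult cTEC. At E13.5 the 124 parathyroid-like cells, led by Pth and Chga, held 70.8% of all Ccl21a UMIs of the library. They were at 9755 CPM, with a UMI in 122 of 124 cells, where the epithelial-like cells were at 148.9 CPM. With all clusters kept in every library, the slope was 0.88 (adjusted p = 0.185). It was 0.49 (adjusted p = 0.478) without adult cTEC replicate 1 and 1.93 (adjusted p = 0.0232) without E13.5 TEC, and DESeq2 gave an adjusted p of 0.00103.

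Adult cTEC replicate 1 stood apart in Ccl21a from replicate 2, with a UMI in 53.5% of its cells against 8.04%, and in 39.6% against 5.17% after thinning. In replicate 1, 103 of 492 cells had 10 or more UMIs, while in replicate 2 there were 24 of 535, and 5 cells held at least 50% of all UMIs. Cells with a UMI of the cTEC genes Psmb11 or Prss16 were at 4688 CPM in replicate 1 and 476.7 CPM in replicate 2, and cells without either were at 7546 and 3261 CPM. Summed mTEC I markers were at 1923 and 1258 CPM in these libraries, beside 2560 and 1510 CPM in adult mTEC. A UMI of Psmb11 or Prss16 was also found in up to 51.1% of the cells of an adult mTEC cluster, so that it does not mark cortical cells alone. When only adult cTEC with such a UMI were kept, the difference of cTEC minus mTEC for Ccl21a was -1.61 ± 0.54 (adjusted p = 0.0479, edgeR).

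Ccl5 had no significant trend, at a slope of 0.48 ± 0.26 (adjusted p = 0.279, edgeR). It was at 37.3 CPM at E13.5 and 5.13 CPM at E15.5, and then at 15.7, 22.1, 116.2 and 47.0 CPM. At E13.5, 93.2% of its UMIs lay in 261 cells led by Krtdap and Krt5, at 218.9 CPM, and other large clusters of that library were at 2.23 and 1.91 CPM. The same cluster was at 499.0 CPM of Ccl21a and 3888 CPM of Krt5. In adult cTEC replicate 1, 78.4% of the Ccl5 UMIs lay in a cluster of 59 cells led by S100a8, Reg3g and Csn2, of which 27.1% had a Ccl5 UMI. These cells clustered with 489 adult mTEC and were at 23.2 CPM of Psmb11, while the main cTEC cluster was at 756.1 CPM of Psmb11 and 25.7 CPM of Ccl5. Without E13.5 TEC the slope of Ccl5 was 1.23 ± 0.20 (adjusted p = 0.0123), and without adult cTEC replicate 1 it was 0.08 (adjusted p = 0.934).

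The medullary members that were lowest in adult cTEC were low in E13.5 TEC and at every cTEC stage. Ccl17 was at 0.22, 0.22, 0.40 and 0.95 CPM before the adult and 0.93 and 0.25 CPM in the adult, with a slope of 0.51 ± 0.33 (adjusted p = 0.361, edgeR). Ccl22 had 0 UMIs in the E13.5, E15.5, E17.5 and NB libraries, which allows up to 0.22, 0.11, 0.03 and 0.13 CPM. Xcl1 had 1 UMI at E15.5 and 0 in E13.5 TEC and the other 4 cTEC libraries. Both failed the filter and were left out of the fit. Without the filter neither passed (adjusted p = 0.0984 for Ccl22 and 0.809 for Xcl1, edgeR).

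Among the other chemokines, 9 of 18 tested rose with stage and 1 fell, with the largest slopes, among those with an average log2 CPM above 3, in Cxcl17 (6.49 ± 0.73), Ccl20 (6.34 ± 0.42) and Cxcl1 (2.73 ± 0.58). Of 10 genes of the inducing pathway, none passed in either direction, and none of 4 signalling receptors did.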

How the data were processed

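Libraries were made and sequenced by the authors, and the deposited matrices give UMI counts per gene and cell as whole numbers, not normalized. The submitters' processing notes name Cell Ranger 2.0.1, STAR 2.5.1b and bcl2fastq 2.17 on mm10, and 3 matrix headers (data set 2) name version 3.0.1. Genes shared by both gene lists held at least 99.124% of UMIs per library. Cells over 5% mitochondrial UMIs or 5000 genes were left out. Clusters were called in each data set, and again in each adult mTEC library without the 10 genes (2000 variable genes, 20 principal components, 20 neighbours, leidenalg 0.10.2 at resolution 0.8). A non-epithelial name needed a fold of 4, and an mTEC subset name a fold of 2, in at least 3 markers and more than 50% of the list. A subset name was withheld where the 10 leading genes held more markers of another subset or of cTEC.

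Counts summed per library were fitted with the quasi-likelihood test of edgeR 4.0.16 (filterByExpr, TMM, data set as a term), adjusted by Benjamini-Hochberg over all genes tested. Age entered as the order of the 5 stages. A standard error is the log2 change over the square root of F. Fits were also run on simulated counts, and the outcome is not reported here. Thinning to 2000 UMIs left out 0 to 123 cells per library. Intervals are exact at 95% and cover counting error only. Doublets were kept, and leaving out high scrublet scores was an alternative, as were DESeq2 1.42.0, its size factors, no filter, other cell sets, no data set term and each library left out. Keeping only adult cTEC with Psmb11 or Prss16, and leaving out the E17.5 haemoglobin cluster, were chosen after seeing the data.

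Members, lists, markers and tests were chosen with earlier results of these data known. Named were the 10 members, the 3 largest called changes in each direction of each list above an average log2 CPM of 3, and up to 3 genes most like a member (r of at least 0.2 in both adult mTEC libraries, genes in at least 5% of cells). A gene that this rule names is not reported here.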

Additional observations from a re-analysis of the deposited data

How the results depend on the processing

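Adult cTEC against adult mTEC gave 4959 genes past the threshold, 2560 with DESeq2 and 1020 to 2874 with 1 library left out (1020 without adult mTEC replicate 2), and 7 members, 4 to 7 with 1 library left out. These fits with 1 library left out had no data set term and set 1 library against 2. The age trend gave 1174 genes, 2938 with DESeq2, 534 in data set 1 only, 296 without E15.5 cTEC, 507 without E17.5 cTEC and 24 to 501 without an adult cTEC library. It gave 5 members, 7 without E13.5 TEC, 6 without NB cTEC, 6 with DESeq2, 2 without E15.5 cTEC, and 1 to 5 without an adult cTEC library (1 without replicate 1). The age fits kept the data set term, so that without E17.5 cTEC or adult cTEC replicate 2 it takes up the lone library left of data set 2. The causes were not tested beyond the fewer libraries fitted. With 1 library left out, the difference of Ccl21a ran from -2.40 to 0.037 and that of Ccl2 from -0.32 to 0.86, with the direction turned without adult cTEC replicate 2 and adult mTEC replicate 2 respectively, and neither was called in any of these fits. Of 228 alternatives for single members in both comparisons, 204 kept direction and side of the threshold, 15 lost the call and 7 gained it. The labels give the adult replicates no numbers, and data set as a term pairs each adult cTEC library with the mTEC library of its data set. Without that pairing 4145 genes and 7 members passed. Of 140 alternatives for pairs with at least 2 cells expected in both libraries, 125 moved by less than the spread between the libraries. Adult cTEC held 492 and 535 cells, and 3 UMIs correspond to 1.39 and 0.74 CPM there, which limits what can be said of Ccl22, Ccl17 and Xcl1 in the adult cortex.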

Other observations

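Ccl21a in the E15.5 library was also carried by 7 parathyroid-like cells, all with a UMI and at 2987 CPM, where the epithelial-like cells of that library were at 47.8 CPM. In the E17.5 library a cluster of 2019 cells with high haemoglobin transcripts was at 82.2 CPM of Ccl21a, beside 260.6 CPM in the largest cluster, and leaving that cluster out gave 5 members past the threshold in the age trend, as with it.

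In adult cTEC replicate 2, 13 cells that clustered with 3395 E17.5 cTEC, led by Ctsl and Opcml, held 11.7% of the Ccl21a UMIs and 17.9% of the Ccl5 UMIs, though 15.4% of the 13 cells had a Ccl21a UMI and 30.8% a Ccl5 UMI. Another 11 cells of that library, led by Fabp9 and Igf1, held 29.2% of its Ccl19 UMIs and 25.8% of its Ccl5 UMIs, with a Ccl19 UMI in 81.8% and a Ccl5 UMI in 54.5% of the 11 cells.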
